A study of Homo sapiens with 2 samples.

Results

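The genes described here belong to the NF-kB pathway. They comprise its receptors, adaptors, kinases, transcription factors and inhibitors, together with cytokines and other genes that NF-kB is known to induce. A list of 45 such genes was drawn up, and a gene was measured where the platform annotation gave at least 1 probe set with that gene as its only symbol. This held for 42 of the 45, out of 19775 genes with such a probe set on the array. BCL3 had 2 probe sets, both shared with a second symbol, and received no value, and the expression of TRAF2 and BIRC3 was not analysed here. Where a gene had several probe sets, the probe set with the highest mean over both arrays stood for it. The 42 genes had 81 probe sets in all, and 16 of the genes had just 1.

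The RNA came from HEC1A cells, a line established from a human endometrial adenocarcinoma, grown in serum and not otherwise treated. One array held HEC1A cells with EMP2 overexpression and the other held HEC1A cells with EMP2 knockdown through an shRNA vector, EMP2 being a small tetraspan membrane protein. There was 1 array per group, so no value below has an error, a test or a replicate check. Both lines were modified and an unmodified HEC1A array was not analysed here, so the part of the overexpression in a difference cannot be told apart from the part of the knockdown. Whether each line was 1 clone or a pool is not given in the sources used here. On its brightest probe set EMP2 read 12.25 in overexpression and 9.51 in knockdown on the log2 scale, but its 3 other probe sets differed by 0.39, 0.23 and 0.00. At 1.5-fold the labels were thus borne out by 1 probe set of 4. The differences of 0.39 and 0.23 had the same direction, and the probe set with 0.00 read 5.93 on both arrays, below the brightness filter. All 6 markers of epithelium passed the brightness filter described below. EPCAM read 13.13 and 13.12, while KRT8 was 1.70-fold and KRT19 1.96-fold lower in overexpression and CDH1 was 2.11-fold higher. Among 7 leukocyte, 10 endothelial and 10 fibroblast markers measured, 3 passed that filter (PECAM1, TEK and COL1A1), and none of these differed by 1.5-fold. PTPRC, the pan-leukocyte marker CD45, read 3.72 and 3.68.

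NF-kB is a family of dimeric transcription factors that inhibitory IkB proteins hold in the cytoplasm. Receptors for TNF and interleukin-1 signal through adaptors and ubiquitin ligases to the IKK complex, which marks IkB for destruction and frees the dimers to enter the nucleus. Their target genes include cytokines, adhesion molecules and survival genes, and also inhibitors of the pathway itself, which form a negative feedback. In epithelial cells, the endometrium included, the pathway is known for inflammatory signalling and for resistance to cell death.

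Feedback through NF-kB acts at promoters, so the promoters of the members are described first. RefSeq promoters of GRCh38.p14, from 250 bases before to 50 after each start site, were found for 38 of the 45 genes and searched on both strands for the degenerate NF-kB consensus of 10 bases. Entries for IKBKB, RELB, NFKBIE, IL18, CSF1, LIF and IER3 were missing. The consensus occurred in 11.3% of all 35116 promoters of the same length, and in 13.3% of all genes when any of a gene's promoters counted. It occurred in 6 of 7 genes for inhibitors and IkB proteins and in 3 of 4 genes for REL factors, against 0 of 5 receptors and 0 of 3 IKK subunits. Of 7 cytokines it occurred in 2, IL6 and IL32, of 7 adaptors and ubiquitin ligases in 2, and of 5 other target genes in 1. By expression, it occurred in 3 of 6 members lower at 1.5-fold, 0 of 2 higher and 8 of 21 under 1.5-fold. The 7 inhibitors and IkB proteins searched include BCL3, which received no expression value, and lack NFKBIE. The 7 adaptors and ubiquitin ligases searched include TRAF2 and BIRC3, also without an expression value, and those with a match were IRAK1 and BIRC3. These counts are descriptions, since genes with several start sites have more chances of a match, overlapping matches on opposite strands count once per promoter, and a match is not a measured binding site. Stretches from before the start site are shown for 3 genes of the inhibitor and IkB group, for IL32 and for 2 REL factor genes. NFKBIZ, TNFAIP3 and IL32 were at least 1.5-fold lower in overexpression, while NFKBIA and both REL factor genes were under 1.5-fold. The stretches are written along the strand of the gene, 5′ to 3′, with the matched bases in capitals.
NFKBIA, chr14:35404796-35404855, minus strand: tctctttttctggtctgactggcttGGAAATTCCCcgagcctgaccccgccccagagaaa
NFKBIZ, chr3:101827742-101827801, plus strand: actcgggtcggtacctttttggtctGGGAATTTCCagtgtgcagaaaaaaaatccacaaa
TNFAIP3, chr6:137867167-137867238, plus strand: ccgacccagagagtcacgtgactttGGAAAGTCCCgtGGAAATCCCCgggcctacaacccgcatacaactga
IL32, chr16:3065279-3065339, plus strand: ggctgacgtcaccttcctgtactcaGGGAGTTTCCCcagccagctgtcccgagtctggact
NFKB1, chr4:102501285-102501344, plus strand: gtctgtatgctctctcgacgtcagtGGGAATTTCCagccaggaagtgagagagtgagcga
REL, chr2:60881502-60881562, plus strand: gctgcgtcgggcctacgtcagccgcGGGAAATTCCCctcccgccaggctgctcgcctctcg

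The matched bases of NFKBIZ and NFKB1 are the same 10 letters, and TNFAIP3 holds 2 matches next to each other. The consensus was not found in the searched windows of ICAM1, TNFSF10, TNFSF15, TNFRSF21 or SOD2, which says only that these letters are not in those windows.

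Expression is given as the log2 value of each array as deposited, and each difference is overexpression minus knockdown. The brightness filter kept genes that reached 6.40 on at least 1 array, which is the median of all values of probe sets with 1 symbol. Of the 42 measured members 36 passed, NFKB2 and TNFSF15 on the knockdown array alone. The others were TNFRSF1B, TRAF1, TNF, IL6, IL1A and IL1B. A member was counted as apart at 1.5-fold, a log2 difference of 0.58 in either direction. By this count 3 members were higher in overexpression (TNFSF10, ICAM1 and IL18) and 6 were lower (TNFSF15, TNFRSF21, NFKBIZ, IL32, SOD2 and TNFAIP3), while 27 were under 1.5-fold. The same count over the 12061 genes that passed put 4.97% higher in overexpression and 4.15% lower, against 8.33% and 16.7% of the 36 members. Over the 42 measured members with no filter, the counts were also 3 and 6, beside 3.40% and 2.89% of all 19775 genes. At 2-fold, 2 members were higher and 2 lower, beside 1.65% and 1.53% of all genes. The median difference of the 36 members was -0.04 and their mean -0.11, beside a median of 0.00 for all genes past the filter. Members were chosen with earlier results of these data known, so these shares and medians are descriptions only.

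**Figure D1:**
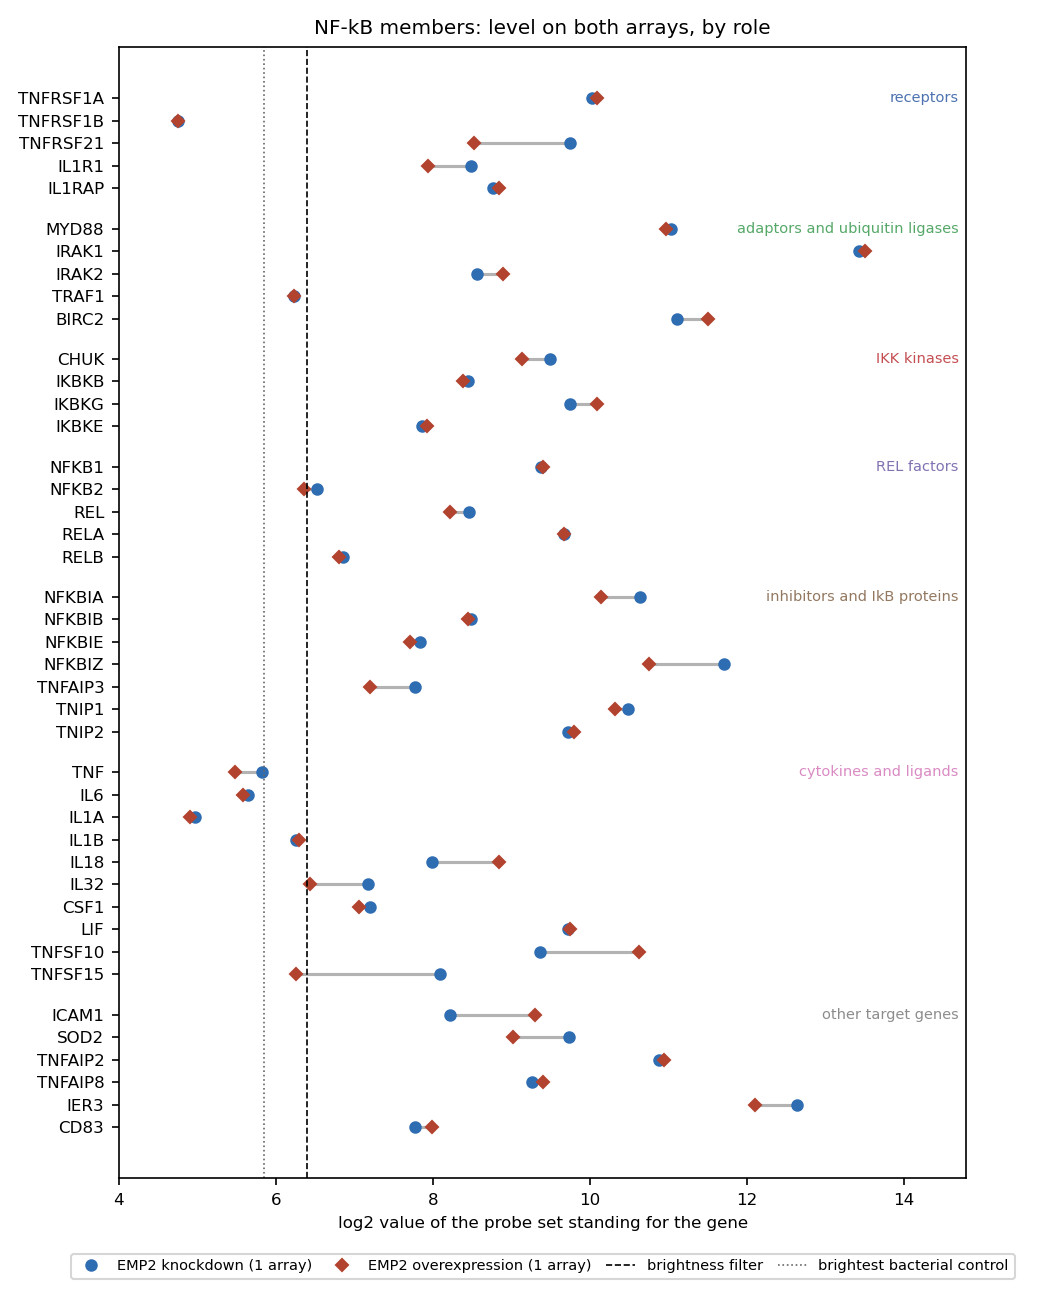
Log2 value of each of the 42 measured members in EMP2 knockdown (circles) and EMP2 overexpression (diamonds), 1 array each, grouped by role, with the brightness filter (dashed) and the brightest bacterial control probe set (dotted). The pairs of points differ by -0.25 to 0.02 for REL factors and by -0.35 to 0.34 for the IKK group, and lie farthest apart for TNFSF15, at 6.26 against 8.09.

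**Figure D2:**
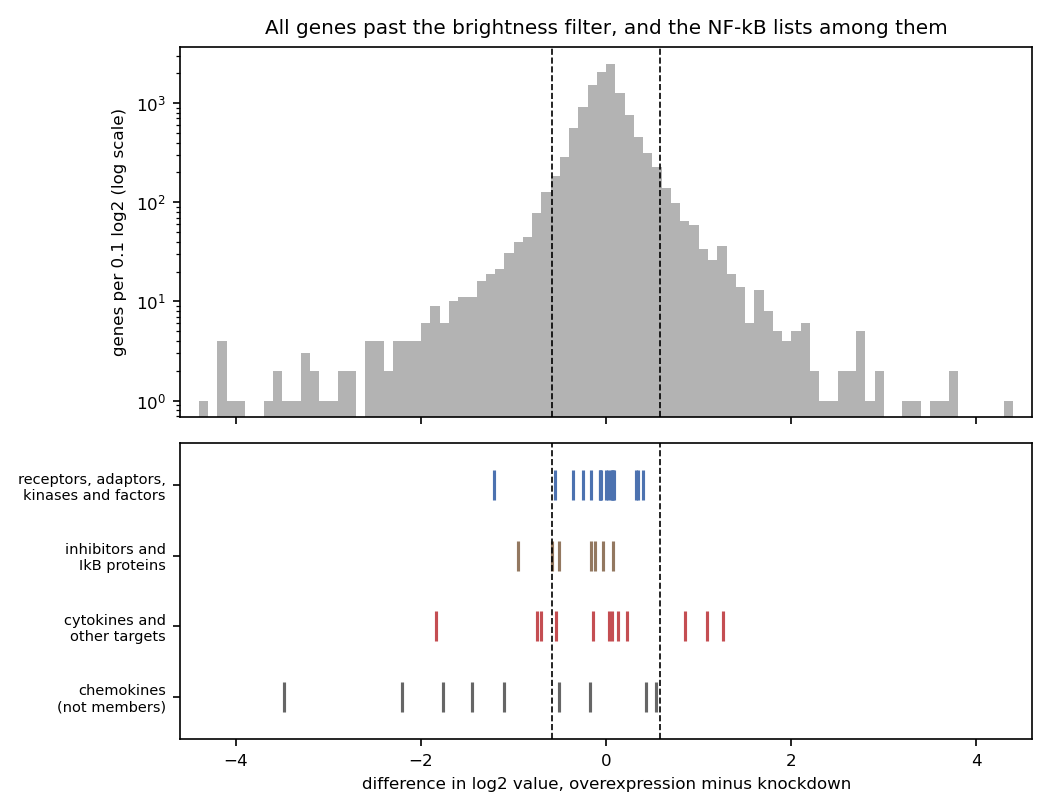
Upper panel, the number of genes past the brightness filter by difference in log2 value (overexpression minus knockdown, in steps of 0.1, on a log axis), and lower panel, the same difference for each gene of the NF-kB groups and of the chemokine list, with dashed lines at 1.5-fold. Of receptors, adaptors, kinases and factors, 1 gene (TNFRSF21) lies past the lines, and the others run from -0.55 (IL1R1) to 0.40 (BIRC2). Cytokines and other targets have genes past the lines on both sides. Of all genes past the filter, 9.12% lie past the lines.

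The 5 transcription factor genes were all under 1.5-fold. RELA, the p65 subunit of the canonical dimer, had the identical value of 9.67 on both arrays, and its second probe set read 7.59 and 7.60. NFKB1, which encodes the p105 precursor of p50, read 9.40 in overexpression and 9.38 in knockdown. RELB, the partner of p52 in the non-canonical branch, read 6.81 and 6.86. NFKB2, the p100 precursor of p52, read 6.36 and 6.52, close to the brightness filter. REL, which encodes c-Rel, had the largest difference of the 5 factors, -0.25 (8.21 against 8.47), and its other 2 probe sets past the filter read lower too, by -0.35 each.

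The IKK genes were also under 1.5-fold. CHUK, the kinase IKK-alpha, read 9.14 in overexpression and 9.49 in knockdown. IKBKB, the kinase IKK-beta, read 8.38 and 8.46. IKBKG, the regulatory subunit NEMO, went the other way at 10.09 and 9.75, and its second probe set agreed in direction with a difference of 0.23. IKBKE, a related kinase best known from interferon induction, read 7.92 and 7.86, and its second probe set had the opposite sign at -0.23. The differences of the 4 IKK genes, NEMO included, thus ran from -0.35 to 0.34 around a median of -0.01.

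Among the receptors, TNFRSF21 was lower on both of its probe sets. This death receptor, also called DR6, read 8.53 in overexpression and 9.75 in knockdown, which made it 2.32-fold lower, and its other probe set was lower by 2.39-fold (6.38 against 7.63). Of all genes past the filter, 1.07% had a lower difference. IL1R1, the signalling receptor for interleukin-1, read 7.94 and 8.49 and so lay just under the threshold, 1.46-fold lower. Its second probe set was below the filter. Of the 20 genes past the filter nearest to IL1R1 on its chromosome, 5 were at least 1.5-fold lower and 1 was at least 1.5-fold higher, and the part of the neighbourhood in the value of IL1R1 was not tested. Its co-receptor IL1RAP read 8.85 and 8.76, with the opposite sign (-0.29) on a dimmer probe set. TNFRSF1A, the main TNF receptor of epithelial cells, was level at 10.09 and 10.03. TNFRSF1B, the TNF receptor typical of leukocytes, had the identical value of 4.75 on both arrays, below the brightest bacterial control probe set of 5.85.

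None of the 4 measured adaptors and ubiquitin ligases past the filter was 1.5-fold apart. MYD88, the adaptor of interleukin-1 and Toll-like receptors, read 10.97 and 11.04. IRAK1, a kinase that MYD88 recruits, read 13.50 and 13.43. IRAK2, a related kinase, was higher by 0.33 (8.89 against 8.57) on the brightest of its 3 probe sets, while the others were below the filter. BIRC2, the ubiquitin ligase cIAP1, was higher by 0.40 (11.51 against 11.11). TRAF1, an adaptor that NF-kB itself induces, had the identical value of 6.23 on both arrays and did not pass the filter.

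Of 7 measured inhibitors and IkB proteins, all past the filter, 2 were at least 1.5-fold lower in overexpression, NFKBIZ and TNFAIP3, and 0 higher. Among all genes past the filter, 4.15% were lower. A difference below 0 of any size was found for 6 of the 7, beside 49.7% of all genes, and 3 of these lay between -0.17 and -0.03. The median of the 7 was -0.17. NFKBIZ, which encodes the nuclear protein IkB-zeta that directs a subset of inflammatory targets, read 10.76 in overexpression and 11.71 in knockdown, 1.94-fold lower. Its second probe set gave 7.90 and 8.94, 2.06-fold lower. Both NFKBIZ probe sets were therefore lower by about the same amount. TNFAIP3, the ubiquitin-editing enzyme A20, read 7.19 and 7.78. Its difference of -0.59 lay just inside the threshold of 1.5-fold, and its second probe set differed by -0.22, so that with both averaged the difference was -0.40 and under 1.5-fold.

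NFKBIA, the classical inhibitor IkB-alpha, read 10.14 in overexpression and 10.64 in knockdown, and so was under the threshold at 1.42-fold, on the only one of its 2 probe sets past the filter. Of the 20 nearest genes past the filter on chromosome 14, 4 had a difference above 0, with a median of -0.13, and the part of the neighbourhood in the value of NFKBIA was not tested. NFKBIA, NFKBIZ and TNFAIP3, whose promoter stretches are shown above, are textbook feedback targets of NF-kB. NFKBIZ passed 1.5-fold on both of its probe sets and TNFAIP3 on its brightest only, while NFKBIA did not pass. The remaining inhibitors and IkB proteins were closer to 0. NFKBIE, the inhibitor IkB-epsilon, differed by -0.12. TNIP1, a partner of A20, differed by -0.17 on its brightest probe set and by 0.03 on the other. NFKBIB, the inhibitor IkB-beta, differed by -0.03, 0.00 and 0.31 on its 3 probe sets. TNIP2 differed by 0.08 and was the 1 gene of the 7 above 0.

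**Figure D3:**
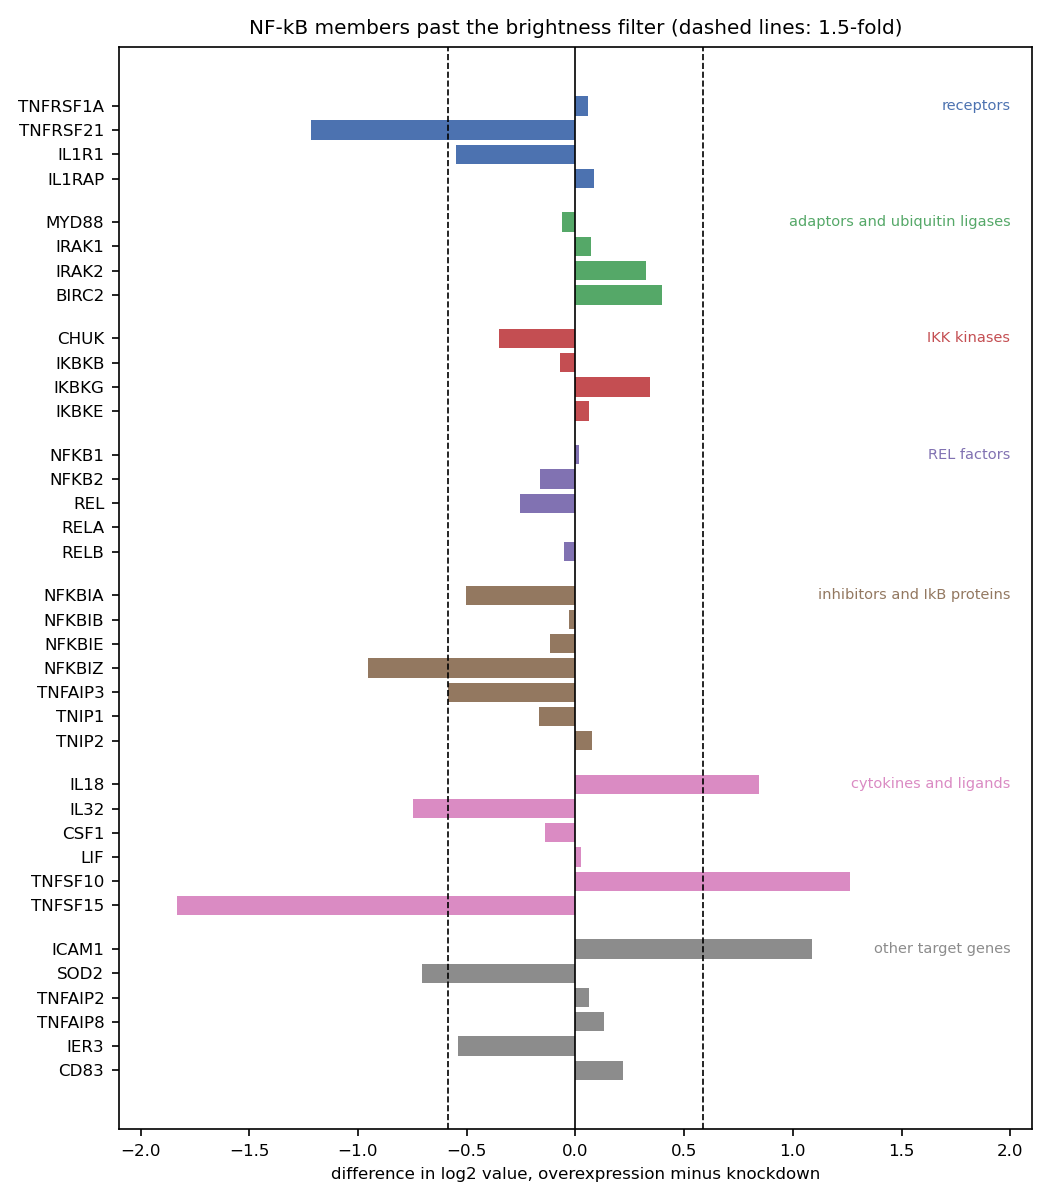
Difference in log2 value (overexpression minus knockdown) of the 36 members past the brightness filter, as bars coloured by role, with dashed lines at 1.5-fold. Of 7 inhibitors and IkB proteins 6 point to the left, while cytokines and other targets have 3 bars past the line on each side.

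The cytokines and ligands went both ways. TNFSF15, the ligand TL1A of the TNF family, read 6.26 in overexpression and 8.09 in knockdown. It was 3.56-fold lower, and 0.46% of all genes past the filter had a lower difference. Its second probe set, at 3.70 and 4.30, lay below the filter and the bacterial controls. With both averaged the difference of TNFSF15 was -1.21, but the averaged values did not reach the filter, so it was then no longer counted. TNFSF10, which encodes the death ligand TRAIL and is also known as an interferon-induced gene, read 10.63 in overexpression and 9.36 in knockdown, 2.40-fold higher. All 3 TNFSF10 probe sets were at least 2-fold higher, with differences of 1.18 to 1.26. These ligands of the same family therefore differed in opposite directions.

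IL18, a cytokine of the interleukin-1 family that many epithelia make constitutively, read 8.84 in overexpression and 7.99 in knockdown, 1.80-fold higher on its only probe set. Of the 20 nearest genes past the filter on chromosome 11, 16 had a difference above 0, with a median of 0.23, and the part of the neighbourhood in the value of IL18 was not tested. For TNFSF10 and ICAM1, the other higher members, the medians of the 20 nearest genes were -0.01 and 0.01. IL32, a proinflammatory cytokine, read 6.44 and 7.18, 1.68-fold lower on its only probe set, with the overexpression value near the filter. LIF, a cytokine of embryo implantation in the endometrium, was level at 9.74 and 9.72. CSF1, the macrophage growth factor, read 7.06 and 7.20. The classical cytokines of the pathway did not pass the filter. TNF read 5.48 and 5.83, IL6 read 5.58 and 5.65, and IL1A read 4.90 and 4.97, none above the brightest bacterial control. IL1B read 6.29 and 6.25, above that control.

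Of the other target genes, ICAM1 was higher and SOD2 lower. ICAM1, the adhesion molecule for leukocyte integrins, read 9.31 in overexpression and 8.22 in knockdown, 2.13-fold higher. A second ICAM1 probe set was 2.05-fold higher (8.88 against 7.85), and the dimmest differed by 0.30 (6.98 against 6.68). With the 3 averaged, the difference was 0.81, still past 1.5-fold. SOD2, the mitochondrial superoxide dismutase, read 9.02 in overexpression and 9.73 in knockdown, 1.63-fold lower. That value rests on 1 probe set, because the other 4 that the annotation pairs with SOD2 also carry a second symbol and were not used.

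IER3, an early response gene tied to cell survival, was 1.45-fold lower (12.10 against 12.64), just outside the threshold. CD83, a surface protein of activated immune cells, differed by 0.22. TNFAIP8, a survival gene, differed by 0.13 on both of its probe sets past the filter. TNFAIP2 differed by 0.06. The 12 targets and cytokines past the filter thus divided into 3 at least 1.5-fold higher, 3 at least 1.5-fold lower and 6 under 1.5-fold, with a median of 0.04. Of the 17 receptors, adaptors, kinases and factors past the filter, 1 was apart and the median was 0.00. With the inhibitors and IkB proteins included, 3 of 24 were apart. Among all genes past the filter, 9.12% were apart, with 4.97% higher and 4.15% lower. Whether these groups of members differ from each other or from all genes was not tested.

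**Figure D4:**
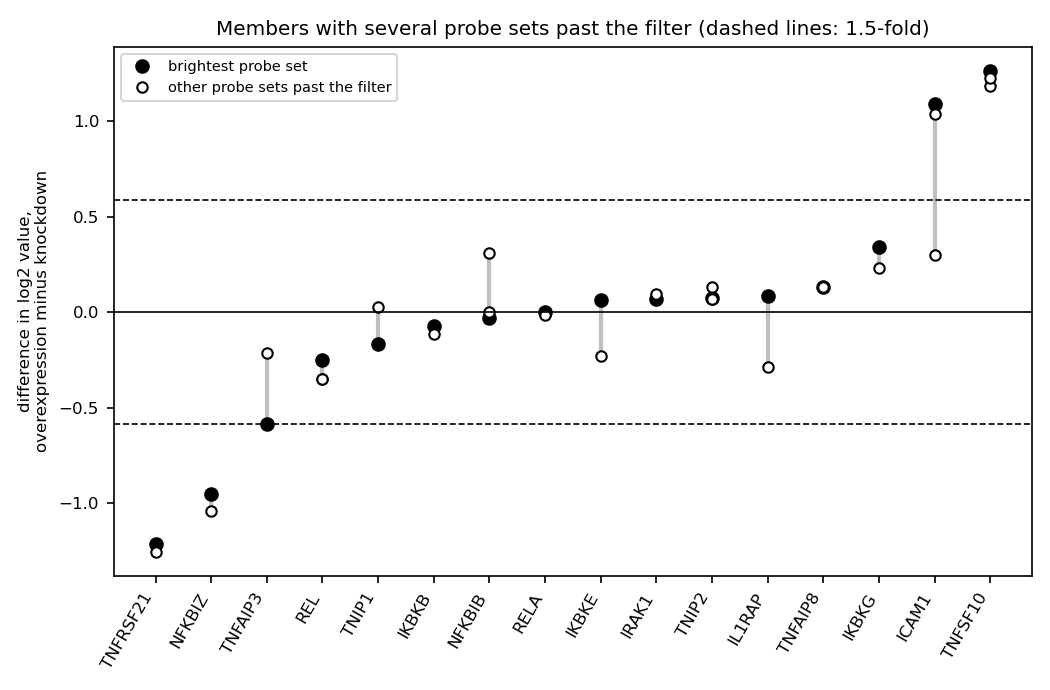
Difference in log2 value (overexpression minus knockdown) of each probe set past the brightness filter, for the 16 members with more than 1, with the brightest probe set filled and dashed lines at 1.5-fold. Probe sets of TNFSF10, TNFRSF21 and NFKBIZ lie together past the line, whereas those of ICAM1 span 0.79 and those of TNFAIP3 span 0.37.

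Agreement between probe sets was the only internal check these arrays offered, and probe sets of 1 gene share the RNA, so they are not replicates. Among the 16 members with several probe sets past the filter, the differences of a gene's probe sets spanned 0.095 log2 units at the median and 0.79 at most. Of the 9 members apart at 1.5-fold, 5 had a further probe set that passed it, and for 4 of these (TNFRSF21, NFKBIZ, TNFSF10 and ICAM1) at least 1 other was also 1.5-fold apart in the same direction. TNFAIP3 was the exception. The remaining 4 (TNFSF15, IL18, IL32 and SOD2) rest on a single probe set.

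Other genes of the pathway, outside the list, were read in the same way. Of 33 further upstream genes past the filter, from death receptors to the linear ubiquitin ligase, 1 was at least 1.5-fold higher and 1 lower. Their median was -0.01. Among all genes past the filter, 4.97% were higher and 4.15% lower. TRAF5, an adaptor of TNF receptors, was 1.85-fold higher (6.86 against 5.97) and passed the filter in overexpression alone. MAP3K8, the kinase TPL2, read 5.83 and 6.64 and passed in knockdown alone, and since the first value is not above the bacterial controls it was at least 1.73-fold lower. Of 20 further target genes past the filter, 2 were higher and 1 was lower, beside the same shares of all genes. The median of the 20 was 0.10. LCN2, the iron-trafficking protein lipocalin 2 and a known target of IkB-zeta, was 7.56-fold lower (6.76 against 9.68) on its only probe set. PSMB9, an immunoproteasome subunit, was 1.74-fold higher (10.64 against 9.84), and GADD45B, a stress-induced survival gene, 1.58-fold higher (8.92 against 8.26). The other 3 GADD45B probe sets were higher by less than 1.5-fold.

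Of 14 chemokine genes measured, also NF-kB targets, 5 were at least 1.5-fold lower in overexpression and 0 higher. With no filter, 2.89% of all genes were lower and 3.40% higher. The median of the 14 was -0.17, beside 0.00 for all genes with no filter. CXCL1 (7.33 against 9.09) passed the filter on both arrays, while CCL20 (6.37 against 8.58), CXCL8, CXCL2 and CXCL3 passed it in knockdown alone. The last 3 had overexpression values not above the bacterial controls. On the probe sets standing for them they were lower by at least 4.93-fold, 2.19-fold and 1.53-fold. A second CXCL8 probe set past the filter had a smaller difference of -0.95 (5.53 against 6.48), also with an overexpression value not above those controls.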

How the data were processed

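The authors deposited log2 values of 54675 probe sets, 1 column for each array. The base of 2 was inferred from the range (2.01 to 14.72). The submitters' processing notes name Partek 6.6. How background, normalization and summarization were handled is not given in the sources used. After sorting, the columns lay within 0.05 of each other, so a shift common to most genes would not be visible. Per the labels' protocols, biotin labelling used a whole-transcript kit.

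Values were used as deposited. Probe sets were named from the platform annotation, where 41097 had 1 symbol, and 41043 of these were found by identifier among RefSeq genes (GRCh38.p14) with 0 symbols differing. Bounds were computed against the brightest of 27 Bacillus subtilis control probe sets, 5.85. Neighbours are the 10 nearest genes past the filter on each side. Described are members at least 1.5-fold apart, members with another probe set that is, those standing for a role, and of the lists without members those at least 1.5-fold apart, up to 8 a list, with IER3, CD83 and the like given to account for every member. Members, lists and tests were chosen with earlier results of these data known. Python 3.11.15, numpy 2.4.6 and pandas 2.3.3 were used, and the code was tested on simulated data. The number of arrays limits the precision. Alternatives were other ways to combine probe sets, other filters, median centring, quantile normalization and a threshold of 2-fold.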

Additional observations from a re-analysis of the deposited data

How the results depend on the processing

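Each of the 9 members apart at 1.5-fold kept its direction under the 4 alternatives run on single genes (mean of all probe sets, no _x_at probe sets, median centring and quantile normalization), and TNFAIP3 alone dropped under 1.5-fold, at -0.40 with all its probe sets averaged. Under the same averaging TNFSF15 differed by -1.21 but no longer passed the filter, so that 4 lower members were counted instead of 6. The count of members apart ranged from 6 to 9 at 1.5-fold, beside 9 in the values reported. Across the same settings 3.40% to 5.01% of all genes were higher. The share of all genes that were lower ran from 2.56%, with probe sets averaged, to 4.29%. With the filter at the 75th percentile, which left 23 members, the count of lower members was 3, beside 3.59% of all genes. At a threshold of 2-fold, 4 members were apart and 2 of them lower, beside 1.53% of all genes lower. The count of higher members was 3 under every alternative except the 2-fold threshold, where it was 2. The median over members ran from -0.07 to 0.06, and was above 0 only with the filter at the 75th percentile. No paired analysis was possible because each group has 1 array. Signal over background limits TNF, IL6, IL1A and TNFRSF1B, none of which was above the bacterial controls on either array.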

Other observations

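REL, which encodes c-Rel, differed by -0.25 while the genes around it on chromosome 2 were mostly higher in overexpression. Of its 20 nearest genes past the brightness filter, 18 had a difference above 0, the median was 0.35, and 4 passed 1.5-fold.

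Of the 81 probe sets of the members, 8 (9.88%) had the identical value on both arrays, beside 14.6% of all probe sets.

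In the promoter search, 9 matches of the NF-kB consensus, some of them overlapping or on opposite strands, fell in 1 of the CD83 windows, while the expression of CD83 differed by 0.22.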
